A study of Mus musculus with 6 samples.

Results

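Chemokines and interleukins are the secreted proteins by which cells attract and instruct leukocytes. Here they were read in muscle stem cells of adult mice, grown in culture and given a short pulse of BMP6, a bone morphogenetic protein. A naming rule, set with earlier results of these data known, picked the genes. It took every gene called Ccl or Cxcl with a number, or Il with a number and at most 1 letter from a to f. Cxcl12 was left out. Where a gene had several probe sets, the one with the highest mean over the 6 arrays was used. This gave 65 of the 20163 genes with a symbol, namely 18 CC chemokines, 12 CXC chemokines and 35 interleukins.

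The cells were grown on Matrigel for 2 days, and the donors were C57BL/6J females between 6 and 8 weeks of age. All cultures, controls included, then spent 6 h without serum and with 200 ng/ml ALK3-Fc, a soluble BMP receptor that captures BMPs carried over from serum. The 3 BMP6 samples then received 100 ng/ml BMP6 for 1 h, and the 3 vehicle samples the solvent alone. Each sample was 1 array of total RNA, and values are log2 RMA signals, on which a step of 1 is a 2-fold difference. The third vehicle sample is replicate 3 by its title but carries mouse number 2 in its source name, which the second vehicle sample also carries. Muscle stem cell markers were bright on the arrays, with Myod1 at a mean of 12.20, Des at 11.94 and Pax7 at 8.86, and only Chodl of the 10 markers lay in the dim range, at 4.60. Ptprc, which marks all leukocytes, was dim at 4.66, as were the macrophage markers Itgam at 4.56 and Adgre1 at 3.95. Of 16 macrophage markers 9 lay above the dim limit defined below, led by Cd68 at 6.60, as did 5 of 12 lymphocyte markers, led by Cd3e at 6.26, and 2 of 7 neutrophil markers. So did 8 of 10 fibro-adipogenic markers, led by Cd34 at 8.69 and Col3a1 at 7.84. The same held for 7 of 8 pericyte and smooth muscle markers, led by Acta2 at 9.72. For endothelial markers it was 9 of 10, led by Vwf at 6.15. Among all genes 74.6% lay above that limit, so these counts alone do not tell which cell types were present.

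Chemokines are small proteins that bind heparan sulfate and act on receptors that couple to G proteins. The CC and CXC names describe the spacing of the conserved cysteines near the amino terminus, and mouse CXC ligands such as CXCL1 and CXCL2 attract neutrophils, while CC ligands such as CCL2 attract monocytes. Interleukins form several unrelated families, among them the IL-1, IL-6, IL-10 and IL-17 families, and act through receptor chains on immune and stromal cells. In injured muscle, cytokines bring in neutrophils and macrophages, and those leukocytes in turn act on the dividing stem cells. Many cytokine genes are turned on by NF-kB, a transcription factor held in the cytoplasm by IkB proteins.

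Most of these ligands gave a signal below that of the median gene in the cultures. The files hold no detection call, so 199 chemosensory receptor genes (olfactory, vomeronasal and taste receptors), which muscle cells mostly do not express, served as a reference. Their mean signals had a median of 3.36, a 95th percentile of 5.17 and a 99th percentile of 5.88, while the median of all genes was 6.41. Of the 65 ligands, 36 (55.4%) had a mean above 5.17, against 74.6% of all genes, and 20 (30.8%) lay above 5.88, against 60.2%. Only 8 lay above the median gene. Their median signal was 5.24. A probe set's brightness depends on its probes as well as on its transcript, so the order below is one of signals and not of transcript numbers. In a bulk culture, fewer cells of a type and less RNA per cell cannot be told apart.

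**Figure D1:**
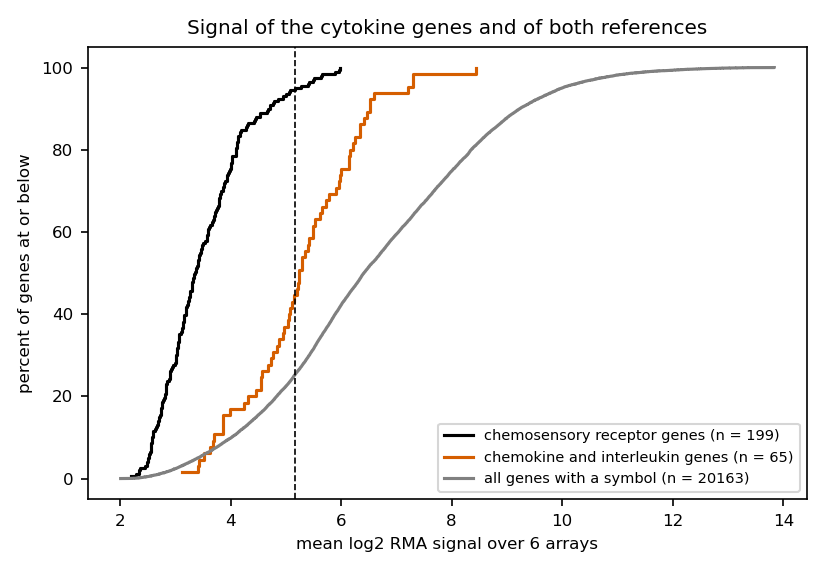
Cumulative share of genes (percent, vertical axis) by mean log2 RMA signal over the 6 arrays (horizontal axis) for the 65 chemokine and interleukin genes, 199 chemosensory receptor genes and all 20163 genes. The dashed line marks 5.17, the 95th percentile of the chemosensory receptor genes, where the cytokine curve lies between the other curves, with 29 genes left of the line.

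The limit of 5.17 was passed by 12 of 18 CC chemokines, 6 of 12 CXC chemokines and 18 of 35 interleukins. By falling signal, the CC chemokines above it were Ccl25, Ccl2, Ccl11, Ccl5, Ccl7, Ccl28, Ccl17, Ccl4, Ccl20, Ccl1, Ccl24 and Ccl22. The CXC chemokines were Cxcl1, Cxcl14, Cxcl10, Cxcl17, Cxcl9 and Cxcl3. The interleukins were Il34, Il33, Il27, Il17b, Il31, Il17c, Il13, Il25, Il17a, Il17f, Il11, Il9, Il17d, Il16, Il22b, Il23a, Il12a and Il12b. The limit cut through a dense range: just above it lay Cxcl3 at 5.20, Il12b at 5.22 and Cxcl9 and Il12a at 5.24, and just below it Ccl9 at 5.14, Il4 at 5.11, Cxcl13 at 5.07 and Cxcl11 at 5.06. The other 25 below it were Ccl6, Il19, Il1b, Ccl26, Cxcl16, Il36a, Cxcl2, Ccl3, Cxcl5, Il24, Il20, Il5, Ccl12, Ccl8, Cxcl15, Il18, Il2, Il21, Il10, Il7, Il1a, Il3, Il36b, Il15 and Il6. The dimmest of all 65 was Il6, a cytokine that contracting muscle is known to release, at a mean of 3.12.

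**Figure D2:**
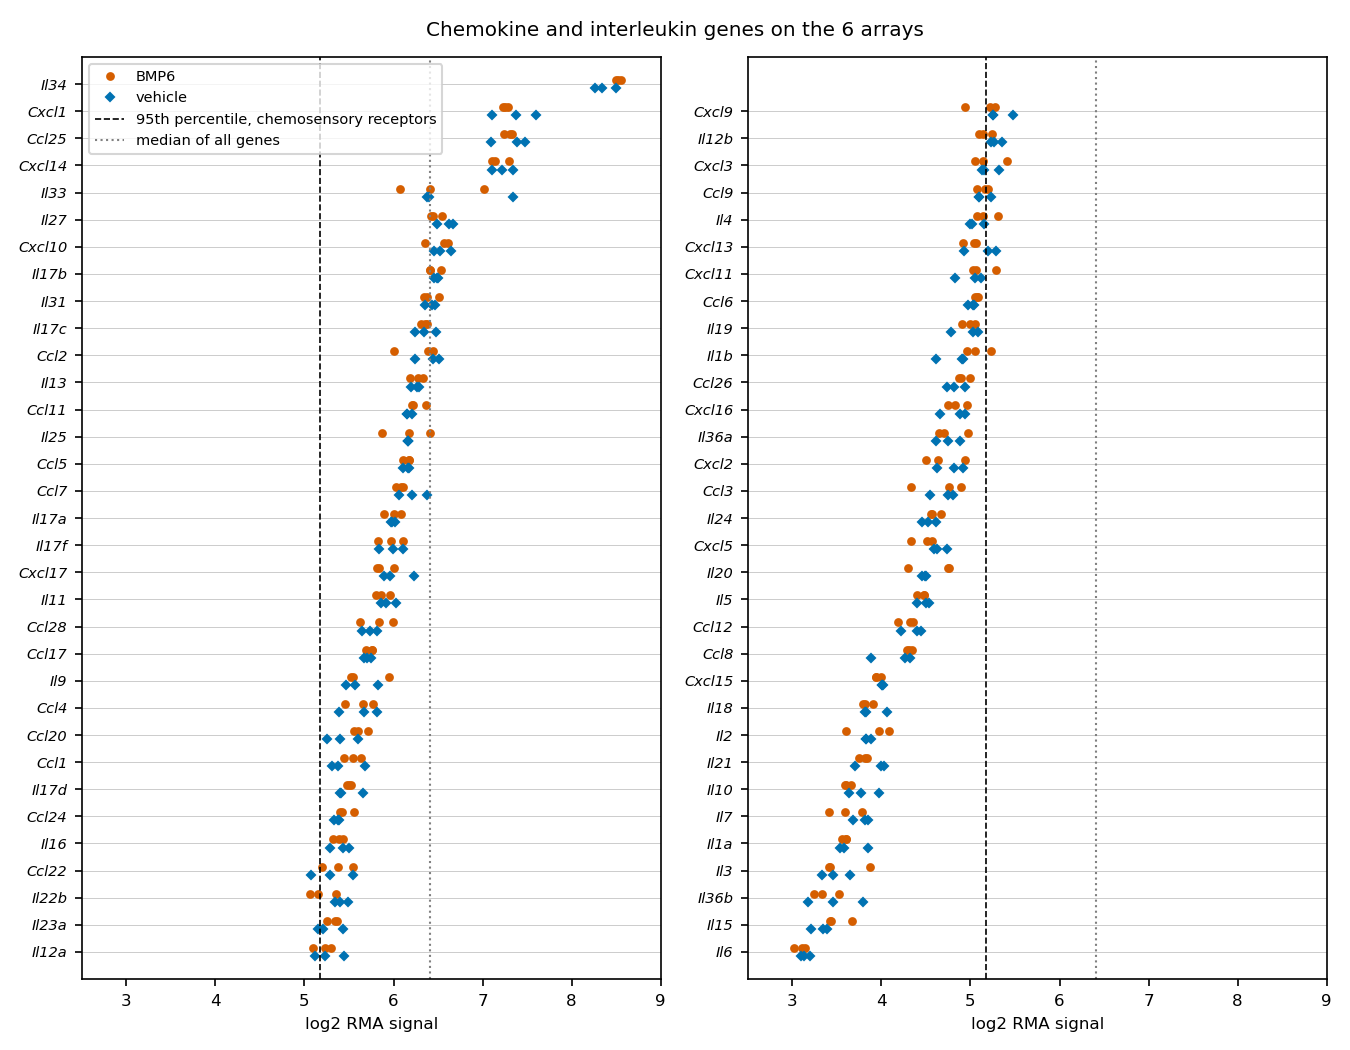
Log2 RMA signal (horizontal axis) of each of the 65 genes on every array, sorted by mean, with BMP6 arrays as circles and vehicle arrays as diamonds. The dashed line is the 95th percentile of chemosensory receptor genes (5.17) and the dotted line the median of all genes (6.41). Il34 stands alone above 8, the signals of most genes fall below the dotted line, and Il33 shows the widest scatter.

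The brightest ligand was Il34, which binds the macrophage receptor CSF1R as CSF1 does. With BMP6 its signals were 8.52, 8.50 and 8.56, and with vehicle 8.49, 8.34 and 8.26, given here and below in the order of replicate numbers 1, 2 and 3. Its signal was above that of 81.2% of all genes, and all 3 BMP6 values lay above all 3 vehicle values by a small margin. Csf1, the other ligand of that receptor and not one of the 65, was measured at a mean of 11.72, and Csf1r at 5.73.

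Next came a group of 3 chemokines with means from 7.20 to 7.31. Ccl25, known from the thymus and small intestine as the ligand of CCR9, stood at 7.24, 7.31 and 7.33 in BMP6 and at 7.09, 7.39 and 7.47 in vehicle. Cxcl14, a chemokine made by many resting tissues, stood at 7.14, 7.11 and 7.30 in BMP6 and at 7.22, 7.11 and 7.35 in vehicle. Cxcl1, which draws neutrophils through CXCR2, stood at 7.29, 7.25 and 7.23 in BMP6 and at 7.60, 7.10 and 7.38 in vehicle. For all 3 the BMP6 values lay within the range of the vehicle values or overlapped it. Ccl25 was the only one of the 65 with a second probe set, and the other ligands rest on 1 probe set each.

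Il33, a nuclear protein of the IL-1 family that injured stromal cells release, stood at 7.02, 6.41 and 6.07 in BMP6 and at 7.34, 6.40 and 6.37 in vehicle. Replicate 1 was the highest in both groups. Il27, which encodes 1 chain of the 2-chain cytokine IL-27, stood at 6.42, 6.55 and 6.44 in BMP6 and at 6.67, 6.62 and 6.48 in vehicle, and its partner chain Ebi3 averaged 5.47. Cxcl10, a chemokine induced by interferon, stood at 6.61, 6.35 and 6.57 in BMP6 and at 6.65, 6.46 and 6.52 in vehicle. These groups overlapped for both Il27 and Cxcl10. Il17b, a less studied IL-17 family member, stood at 6.54, 6.41 and 6.41 in BMP6 and at 6.50, 6.49 and 6.45 in vehicle, and was the last of the 8 above the median gene.

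The remaining 7 of the 15 brightest lay between 6.15 and 6.41. Il31, known for itch, stood at 6.51, 6.34 and 6.38 in BMP6 and at 6.47, 6.43 and 6.35 in vehicle. Il17c, an epithelial cytokine, stood at 6.35, 6.37 and 6.31 in BMP6 and at 6.34, 6.47 and 6.24 in vehicle. Ccl2, the monocyte chemoattractant, stood at 6.38, 6.00 and 6.45 in BMP6 and at 6.45, 6.24 and 6.51 in vehicle. Of these, Ccl2 was lowest in replicate 2 of both groups. Il13, a type 2 cytokine, stood at 6.19, 6.33 and 6.28 in BMP6 and at 6.29, 6.27 and 6.20 in vehicle. Ccl11, or eotaxin, stood at 6.22, 6.21 and 6.36 in BMP6 and at 6.16, 6.21 and 6.15 in vehicle. Il25, also called IL-17E, stood at 6.18, 6.41 and 5.88 in BMP6 and at 6.16, 6.17 and 6.16 in vehicle, so that its spread lay in the BMP6 group. Ccl5, a T cell and monocyte chemoattractant, stood at 6.17, 6.11 and 6.17 in BMP6 and at 6.17, 6.17 and 6.10 in vehicle, and hardly varied between arrays.

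Many chemokine genes lie beside each other, and the signals of their probe sets ranged widely in the 3 largest groups of neighbours and little in some pairs, such as Ccl22 and Ccl17 (5.34 and 5.72) or Il17a and Il17f (5.99 and 5.97). In the RefSeq gene table of GRCm38.p6, with gaps of at most 200 kb, Cxcl5, Cxcl3, Cxcl15, Cxcl1 and Cxcl2 form 1 group of neighbours, with mean signals from 3.99 for Cxcl15 to 7.31 for Cxcl1. Only Cxcl1 and Cxcl3 of these 5 passed the limit of 5.17. Cxcl2, a neutrophil attractant like Cxcl1, stood at 4.64, 4.50 and 4.94 in BMP6 and at 4.91, 4.63 and 4.82 in vehicle, and Cxcl3, which acts likewise, at 5.41, 5.05 and 5.14 in BMP6 and at 5.32, 5.15 and 5.13 in vehicle. Ccl2, Ccl7, Ccl11, Ccl12, Ccl8 and Ccl1 form another group, with means from 4.23 for Ccl8 to 6.34 for Ccl2 and 4 of 6 above the limit. Ccl5, Ccl9, Ccl6, Ccl3 and Ccl4 form another, with means from 4.68 to 6.15 and 2 of 5 above the limit.

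The stretches before the start sites of Cxcl1, Cxcl2, Cxcl3 and Cxcl10 are shown because all 4 hold the NF-kB consensus while their signals differ. They are the 250 bases before each start, from RefSeq on GRCm38.p6, 5′ to 3′ along the gene, with matches to the consensus on either strand in capitals.
Cxcl1 (plus strand, chr5:90890995-90891244): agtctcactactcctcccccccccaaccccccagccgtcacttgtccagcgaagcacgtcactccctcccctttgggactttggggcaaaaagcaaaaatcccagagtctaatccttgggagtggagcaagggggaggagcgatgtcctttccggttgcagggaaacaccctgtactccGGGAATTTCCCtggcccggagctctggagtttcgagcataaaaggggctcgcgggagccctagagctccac
Cxcl2 (plus strand, chr5:90903649-90903898): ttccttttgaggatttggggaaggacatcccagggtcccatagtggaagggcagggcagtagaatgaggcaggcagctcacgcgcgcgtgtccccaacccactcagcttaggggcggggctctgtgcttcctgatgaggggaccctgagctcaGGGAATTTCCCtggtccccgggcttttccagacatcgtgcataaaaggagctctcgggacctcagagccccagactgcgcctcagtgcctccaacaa
Cxcl3 (plus strand, chr5:90785851-90786100): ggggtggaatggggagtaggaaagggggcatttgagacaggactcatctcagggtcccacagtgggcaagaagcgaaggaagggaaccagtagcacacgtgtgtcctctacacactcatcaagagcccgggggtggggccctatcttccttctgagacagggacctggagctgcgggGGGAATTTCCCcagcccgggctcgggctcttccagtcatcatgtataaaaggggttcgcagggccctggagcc
Cxcl10 (minus strand, chr5:92348890-92349139): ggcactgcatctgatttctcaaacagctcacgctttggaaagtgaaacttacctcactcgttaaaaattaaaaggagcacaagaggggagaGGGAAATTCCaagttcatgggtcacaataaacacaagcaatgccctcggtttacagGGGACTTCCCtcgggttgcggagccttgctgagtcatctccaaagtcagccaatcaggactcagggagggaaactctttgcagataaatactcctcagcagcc

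Cxcl1, Cxcl2 and Cxcl3 carry the same run of letters, GGGAATTTCCC, in which the matches on both strands overlap. Read along the gene, it matches 61, 87 and 63 bases before their start sites. Cxcl10 carries GGGACTTCCC 93 bases and GGGAAATTCC 149 bases before its start. Upstream stretches were at hand for 44 of the 65 genes, of which 9 (20.5%) held the consensus, against 4.46% of 27025 genes. The other 5 were Ccl20, Ccl9, Il16, Il19 and Il6. The letters GGCGCC, which occur in elements that BMP-activated SMADs bind, were found in 0 of the 44 and in 10.8% of all genes. The letters TATAAA were found in 17 of the 44 (38.6%) and in 14.3% of all genes. A match is a description of the letters, and says nothing of binding.

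Most chemokine receptors were dim, and interleukin receptor chains were brighter. Of 23 chemokine receptors 8 lay above the limit of 5.17, led by Ackr3 at 7.63 and Cxcr4 at 7.52, both of which bind CXCL12. Cxcl12 itself averaged 7.80. The receptors of the brighter chemokines lay lower, with Cxcr2 (for CXCL1) at 3.52, Ccr9 (for CCL25) at 4.26, Ccr2 (for CCL2) at 3.65, Ccr3 (for CCL11) at 4.77 and Cxcr3 (for CXCL10) at 5.62. Of 43 interleukin receptor genes 26 lay above the limit, which 74.6% of all genes passed. The brightest was Il6st, or gp130, the signalling chain shared by the IL-6 family, at 10.30, followed by Osmr at 8.59, Il1r1, the receptor of IL-1, at 8.11, Il13ra1 at 8.10 and Il4ra at 8.06. Of the ligands that these chains serve, Il6, Il1a, Il1b and Il4 were below the limit, at 3.12, 3.62, 4.95 and 5.11. Others were above it: Il13 at 6.26, Il27, Il31 and Il11, which use gp130 or Osmr, at 6.53, 6.41 and 5.90, and Lif and Ctf1, outside the naming rule, at 5.73 and 5.58. For Il33 the receptor Il1rl1 was at 4.36 and its partner chain Il1rap at 6.59.

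BMP6 was compared with vehicle to ask whether any of these ligands responded within 1 h. None of the 65 was called in limma at an adjusted p under 0.05, where 0.0843% of all genes were called, all of them higher. At an unadjusted p under 0.05 there were 2 of 65 (3.08%), against 3.17% of all genes. Of these 1 was higher and 1 lower, where 1.4% and 1.77% of all genes were. With replicate number as a block none was called, where 0.144% of all genes were, and 8 of 65 (12.3%) had an unadjusted p under 0.05, against 5.84% of all genes. The groups did not overlap for 7 of 65 (10.8%), against 7.71% of all genes, with 5 higher (Il34, Ccl24, Ccl6, Il1b and Il15) and 2 lower (Cxcl5 and Cxcl15). Of the log2 fold changes 30 were positive and 35 negative, from -0.22 to 0.27, with a median of -0.01 beside -0.0013 for all genes. By class the medians were 0.04 for CC chemokines, -0.07 for CXC chemokines and -0.01 for interleukins.

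The intervals bound what 3 arrays a group could have missed on the scale of these signals. The median standard error of the 65 log2 fold changes was 0.09. For 63 of them the 95% interval lay within 0.5 on either side of 0. For all 65 it lay within 1, that is, within a 2-fold change of the signal. Of all 20163 genes, 19571 had an interval within 0.5 and 20136 within 1, so such narrow intervals are not particular to the ligands. Among the 65, the exceptions to the narrower bound were Il33 (-0.83 to 0.42) and Il1b (0.03 to 0.51). RMA compresses differences of dim probe sets, so for the 29 genes below the limit of 5.17 the intervals say little about the transcripts.

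**Figure D3:**
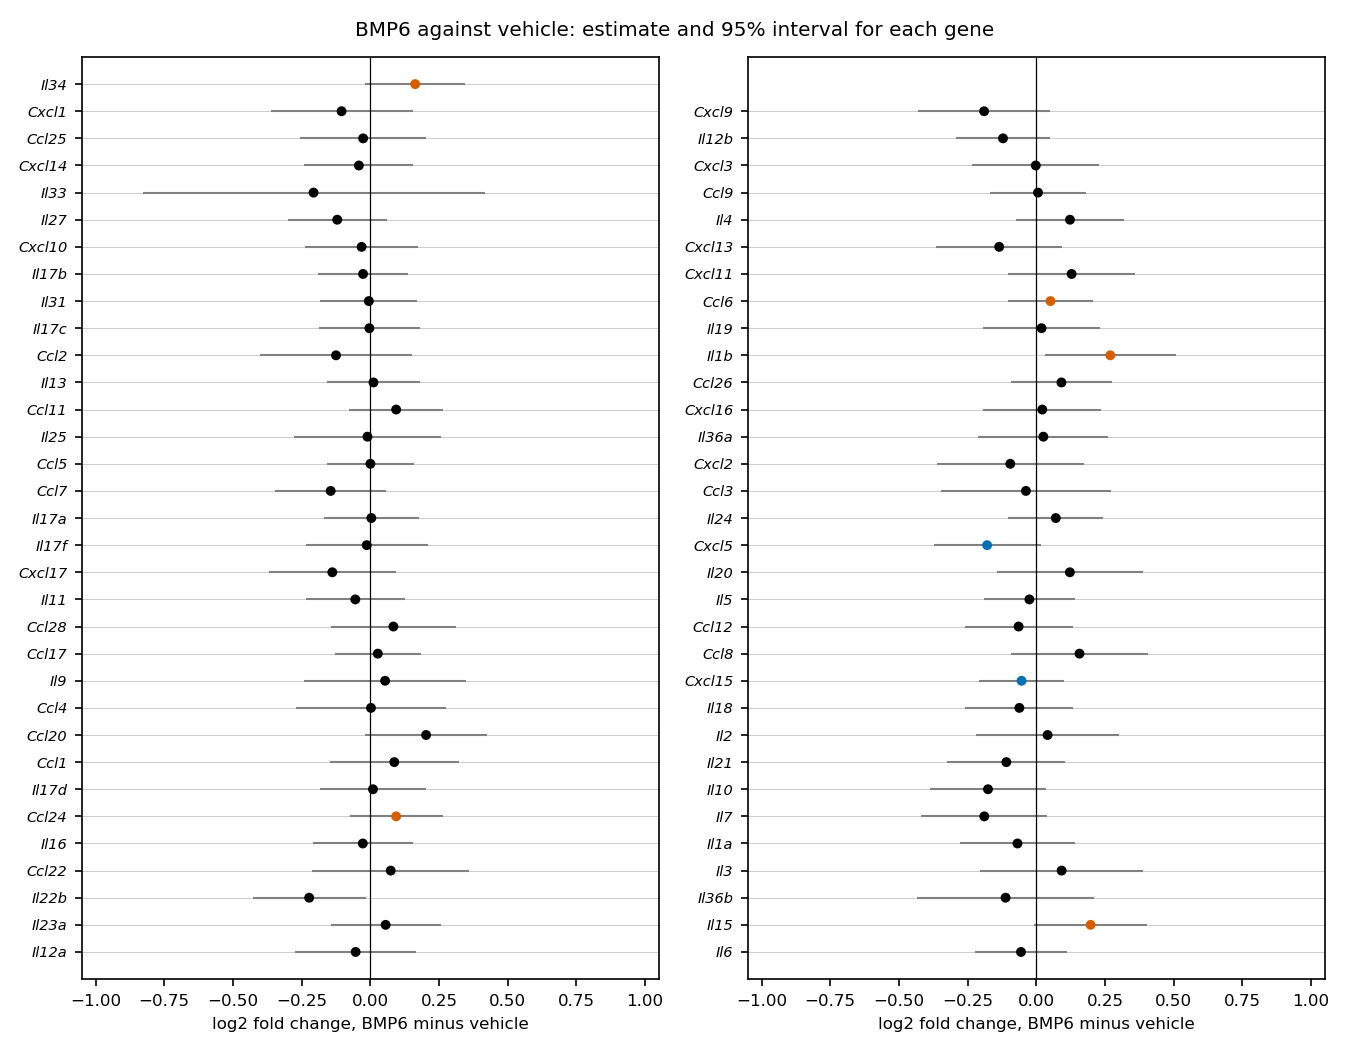
Log2 fold change of BMP6 minus vehicle (horizontal axis) with its 95% interval from limma for each of the 65 genes, sorted by mean signal. Orange points mark the 5 genes whose BMP6 values all lay above the vehicle values, blue points the 2 with all values below, and black points groups that overlapped. Every interval lies within 1 on either side of 0, and that of Il33 is the widest.

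Among the genes higher with BMP6, the lowest p was that of Il1b, an inflammatory cytokine of macrophages. It stood at 5.23, 4.96 and 5.05 in BMP6 and at 4.90, 4.92 and 4.61 in vehicle, all below the median gene. Its mean of 4.95 was also below the limit of 5.17. The groups did not overlap, but within replicate number 2 they differed by only 0.04. Its log2 fold change was 0.27 (SE 0.11, 1.21-fold, unadjusted p = 0.0307 and adjusted p = 1 in limma). Il15, a cytokine known from muscle, stood at 3.43, 3.67 and 3.43 in BMP6 and at 3.21, 3.34 and 3.39 in vehicle, a difference of 0.20 (SE 0.09) at a signal near the median of the chemosensory receptors. Ccl20, which draws cells with CCR6, had a log2 fold change of 0.20 (SE 0.10), with values of 5.55, 5.71 and 5.60 in BMP6 and 5.25, 5.60 and 5.40 in vehicle. Il34 had one of 0.16 (SE 0.08), with differences of 0.03, 0.16 and 0.30 within replicate numbers 1, 2 and 3, and Il4, the type 2 cytokine, one of 0.12 (SE 0.09). The adjusted p was 1 in limma for each of these 5.

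Among the genes lower with BMP6, Il22b had the lowest p, at 5.16, 5.06 and 5.35 in BMP6 and 5.49, 5.40 and 5.34 in vehicle. The groups overlapped in replicate number 3, where BMP6 was higher by 0.01. Its log2 fold change was -0.22 (SE 0.09, unadjusted p = 0.0369 and adjusted p = 1 in limma). RefSeq lists the gene as Iltifb, a near copy of Il22, so that its signal cannot be given to 1 of the copies. Cxcl5, a neutrophil chemoattractant, stood at 4.51, 4.33 and 4.57 in BMP6 and at 4.74, 4.62 and 4.59 in vehicle, a log2 fold change of -0.18 (SE 0.09). The groups did not overlap, although BMP6 minus vehicle was only -0.02 within replicate number 3. The log2 fold changes of Il10, an anti-inflammatory cytokine, Il7, a lymphocyte growth factor, and Cxcl9, an interferon-induced chemokine, were -0.18 (SE 0.09), -0.19 (SE 0.10) and -0.19 (SE 0.11), each with an adjusted p of 1 in limma. Il10 and Il7 averaged 3.70 and 3.69.

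Among the other bright ligands Il33 had the most negative log2 fold change, -0.21 (SE 0.28, 95% interval -0.83 to 0.42, adjusted p = 1 in limma), with the widest interval of the 65. With replicate number as a block its standard error was 0.08, its unadjusted p 0.0353 and its adjusted p 0.841 in limma. For other bright ligands the values were -0.03 (95% interval -0.25 to 0.20) for Ccl25, -0.10 (-0.36 to 0.15) for Cxcl1, -0.04 (-0.24 to 0.16) for Cxcl14, -0.12 (-0.30 to 0.06) for Il27 and -0.03 (-0.24 to 0.17) for Cxcl10. Those of Il17b, Il31, Il17c, Il13 and Ccl5 lay between -0.03 and 0.01, each with a standard error of 0.07 or 0.08, and that of Il25 was -0.01 (SE 0.12). Ccl2 and Ccl11 had -0.12 (SE 0.12) and 0.09 (SE 0.08). In the fit without a block, none of these values can be told from 0 at this replicate spread. The 4 genes whose sequences are shown above, which hold the NF-kB consensus, had log2 fold changes of -0.10 (Cxcl1), -0.09 (Cxcl2, SE 0.12), -0.0018 (Cxcl3, SE 0.10) and -0.03 (Cxcl10). The other ligands found with the consensus had 0.20 (Ccl20, SE 0.10), 0.0063 (Ccl9), -0.03 (Il16), 0.02 (Il19) and -0.06 (Il6).

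Receptors and regulators of the same pathways held 2 calls, read from the same fit, where 0.0843% of all genes were called. Of 23 chemokine receptors 1 rose, Cxcr4, from 7.14, 7.05 and 7.35 in vehicle to 7.83, 7.85 and 7.89 in BMP6 (difference 0.68, SE 0.09, limma adjusted p = 0.0257). The call did not hold without BMP6 replicate 1, 2 or 3, without vehicle replicate 1 or 2, or with both samples numbered 3 left out. In these fits the adjusted p ran from 0.0553 to 0.160 in limma, while the log2 fold change stayed between 0.61 and 0.74. With replicate number as a block the call held (adjusted p = 0.0072 in limma). It held in 8 of 16 alternative fits. Ackr3, the scavenging receptor of the same ligand, stood at 7.77, 7.82 and 7.89 in BMP6 and at 7.33, 7.53 and 7.46 in vehicle, groups that did not overlap, and differed by 0.39 (SE 0.08, adjusted p = 0.456 in limma). Their ligand Cxcl12 had a log2 fold change of 0.02 (SE 0.08). Ccr3 was next by p, at -0.16 (SE 0.07, adjusted p = 1 in limma). The median over the 23 receptors was 0.01.

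Of 29 NF-kB and cytokine mRNA decay genes 1 rose, Nfkbia, the IkB protein that holds NF-kB inactive, from 9.15, 8.84 and 8.82 in vehicle to 9.80, 9.81 and 9.89 in BMP6 (log2 fold change 0.90, SE 0.10, limma adjusted p = 0.0115). Without BMP6 replicate 2, vehicle replicate 2 or both samples numbered 3 the adjusted p was 0.0764, 0.0882 and 0.137 in limma. The log2 fold change stayed between 0.81 and 1.01 over all 16 alternatives. The call held in 12 of them, replicate number as a block included (adjusted p = 0.0040 in limma). Nfkbiz, a nuclear IkB protein that NF-kB uses at cytokine genes, had a log2 fold change of -0.29 (SE 0.08) and the NF-kB subunit Rel one of 0.22 (SE 0.09), both with an adjusted p of 1 in limma. The median over the 29 genes was 0.03. At an unadjusted p under 0.05 in limma 2 were higher and 2 lower, where 1.4% and 1.77% of all genes were.

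None of the 43 interleukin receptor genes was called in limma, and their median was -0.02. At an unadjusted p under 0.05, 1 was higher and 1 lower, where 1.4% and 1.77% of all genes were. These were Il17ra, a receptor chain of the IL-17 family, at 0.20 (SE 0.08), and Il23r at -0.25 (SE 0.08) with a mean signal of 3.76, and Il12rb2 followed at 0.12 (SE 0.08). None of the 27 cytokines and antagonists outside the naming rule was called in limma either, again with 1 higher and 1 lower at an unadjusted p under 0.05 and a median of 0.0035. The higher one was Csf1, at 11.87, 11.81 and 11.84 in BMP6 and 11.62, 11.55 and 11.62 in vehicle, or 0.25 higher on the log2 scale (SE 0.07, unadjusted p = 0.00588 and adjusted p = 1). The 3 BMP6 values of Csf1 were all above those of vehicle, by 0.25, 0.27 and 0.22 within replicate numbers. Tnf, the inflammatory cytokine, was the lower one, at -0.30 (SE 0.11), and Lif, an IL-6 family ligand, followed at 0.19 (SE 0.10).

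**Figure D4:**
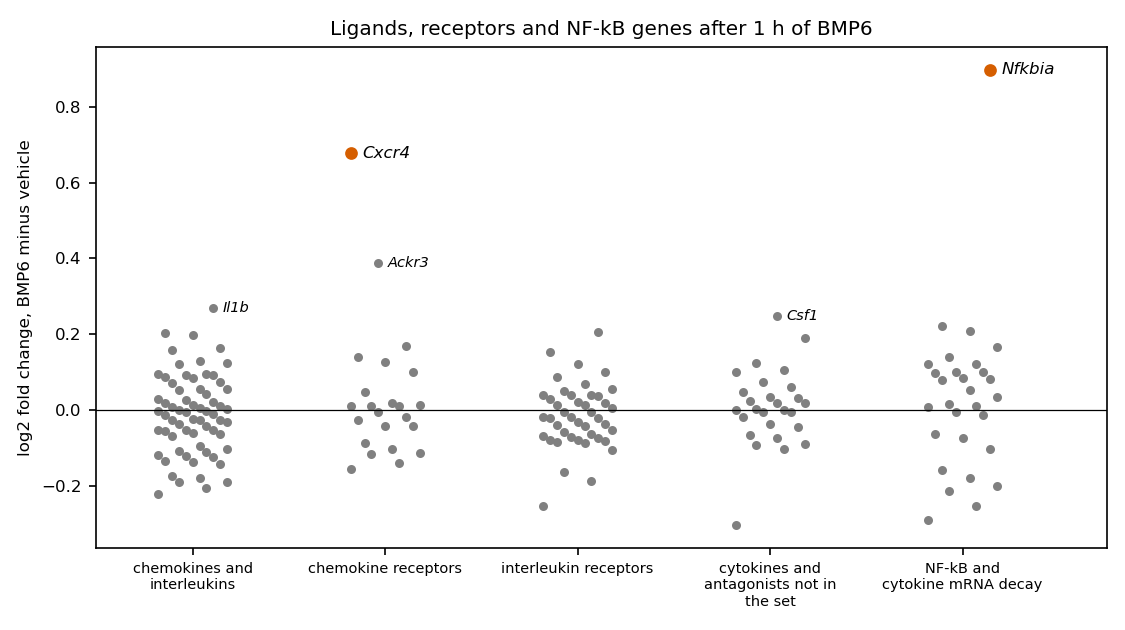
Log2 fold change of BMP6 minus vehicle (vertical axis) for each gene of the 65 chemokines and interleukins and of 4 related lists. Orange points with names are the genes called at an adjusted p under 0.05 in limma, Cxcr4 at 0.68 and Nfkbia at 0.90, and grey points are the others, of which Il1b, Ackr3 and Csf1 are named. Points are spread sideways only to separate them. The 65 ligands lie between -0.22 and 0.27.

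Of these ligands, 1 was called for a difference between replicate numbers. Replicate number was tested over all genes with treatment in the model (limma's moderated F-test). Of the 65 genes 1 (1.54%) passed an adjusted p under 0.05, against 0.392% of all genes, and 7 (10.8%) had an unadjusted p under 0.05, against 14% of all genes. The called gene was Il33. Its mean was 7.18 in replicate number 1, 6.40 in number 2 and 6.22 in number 3, so that number 1 stood 0.86 above the mean of the others, and the spread from highest to lowest was 0.96 (adjusted p = 0.00757 in limma). The same order held in BMP6 and in vehicle, while BMP6 minus vehicle was -0.32, 0.0020 and -0.30 within numbers 1, 2 and 3.

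The call for Il33 was lost without BMP6 replicate 1 (adjusted p = 0.0649 in limma) and without vehicle replicate 1 (0.182), fits that leave number 1 with a single array. It was also lost when the samples were grouped by the mouse of the source names, which moves the third vehicle sample to mouse 2 (0.203), although the spread was then 1.04. Some other genes moved with it. The NF-kB cofactor Bcl3 and Ptgs2, the inducible cyclooxygenase, were also called between numbers and highest in number 1, by 0.61 and 0.50 above the mean of numbers 2 and 3. Their adjusted p in limma was 0.0469 and 0.0490, just under the limit of 0.05. They were the 2 called of the 29 NF-kB and cytokine mRNA decay genes, where 0.392% of all genes were called between numbers. Of 10 markers of fibro-adipogenic cells, the connective tissue cells of muscle, 2 were called between numbers: Cd34, also a muscle stem cell marker, was highest in number 1 at 9.11 and lowest in number 2 at 8.20, and Dcn was lowest in number 1 at 6.23 and highest in number 3 at 7.02. The summed signal of these 10 markers ranged from 61.2 to 63.0 in number 1 and from 61.7 to 63.2 in the others. None of the 10 endothelial or 16 macrophage markers was called between numbers in that fit, and their summed signals ranged from 55.1 to 55.8 and from 85.1 to 85.3 in number 1, and from 54.2 to 55.7 and 83.6 to 87.3 in the others. Of the muscle stem cell markers, Myf5 was called and highest in number 3. The part of these cell types in the difference of Il33 was not tested.

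Il33 has a pair of listed start sites, and the stretch before each is shown because it was the ligand with the called difference. Each is 250 bases from RefSeq on GRCm38.p6, plus strand, 5′ to 3′, with TATAAA in capitals, which lies 197 bases before the first start and 23 bases before the second.
Il33, first start (chr19:29924863-29925112): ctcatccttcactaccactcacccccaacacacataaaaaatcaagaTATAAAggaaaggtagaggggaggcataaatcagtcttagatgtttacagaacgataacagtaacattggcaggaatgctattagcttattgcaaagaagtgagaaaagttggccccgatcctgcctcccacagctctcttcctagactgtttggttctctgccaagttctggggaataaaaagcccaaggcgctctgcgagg
Il33, second start (chr19:29945540-29945789): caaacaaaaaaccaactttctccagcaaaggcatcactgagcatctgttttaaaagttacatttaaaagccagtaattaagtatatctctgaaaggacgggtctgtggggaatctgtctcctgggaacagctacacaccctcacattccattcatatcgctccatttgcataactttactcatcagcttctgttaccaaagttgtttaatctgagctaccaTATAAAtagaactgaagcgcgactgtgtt
Neither stretch holds the NF-kB consensus or GGCGCC. The probe set does not tell which start was used.

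The next ligands by p in this test did not pass. They were Ccl2, with means of 6.41, 6.12 and 6.48 in numbers 1, 2 and 3 (adjusted p = 0.223 in limma), Ccl22, a macrophage-derived chemokine, with 5.42, 5.46 and 5.14 (0.307), Cxcl3 with 5.36, 5.10 and 5.14 (0.323) and Cxcl2 with 4.78, 4.56 and 4.88 (0.333). Number 2 was lowest for Ccl2, Cxcl3 and Cxcl2. The median spread between numbers was 0.15 for the 65 ligands and 0.15 for all genes.

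**Figure D5:**
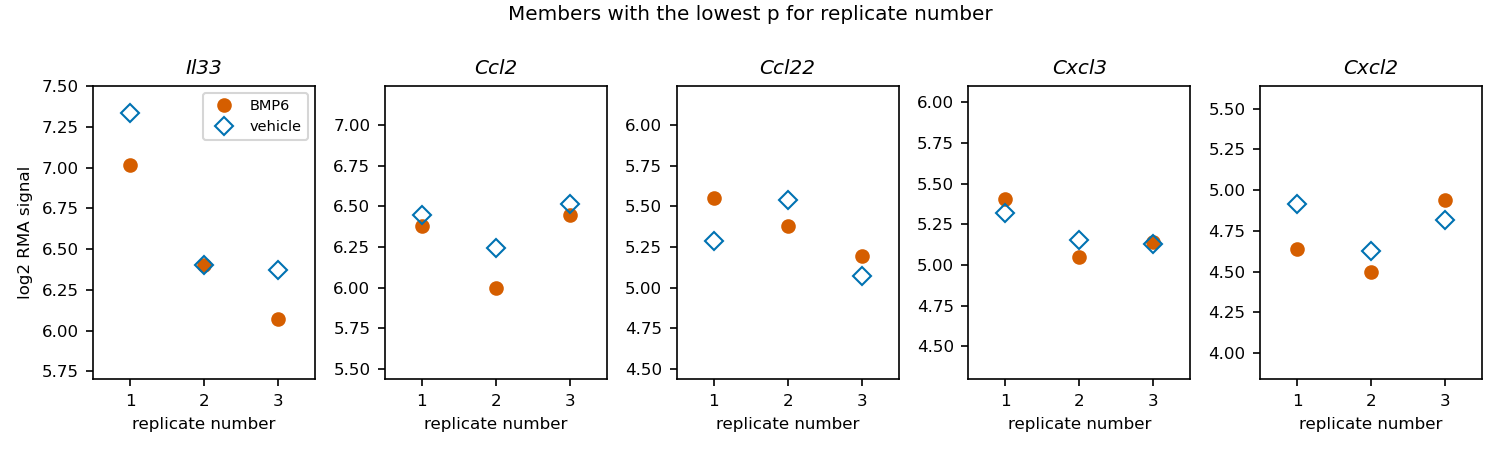
Log2 RMA signal (vertical axis, each panel spanning the same range) by replicate number for the 5 ligands with the lowest p in the test of replicate number, with BMP6 arrays as filled circles and vehicle arrays as open diamonds. Il33 is high in number 1 in both treatments, and the other 4 genes vary less.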

How the data were processed

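The authors deposited log2 signals of probe sets. The submitters' processing notes name RMA and oligo. Because RMA gives all arrays 1 distribution, a general rise or fall of RNA cannot be seen. The sources used here do not give the array type, tool versions or annotation source. Of 34760 probe sets, 21893 carried a symbol, and no filter on dim ones was applied. The other deposited table differed by at most 5e-09. No file names a genome build.

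BMP6 and vehicle (3 arrays each) were compared with limma 3.58.1 in R 4.3.3 (lmFit, eBayes, two-sided), with no covariate and Benjamini-Hochberg adjustment over 20163 genes. The residual degrees of freedom were 4, and eBayes added 5.72. SDs, standard errors and 95% intervals are over samples, which the labels call biological replicates. The number of arrays limits the precision. The scripts were tested on simulated data. Entrez identifiers of all 65 genes were in RefSeq's table, 62 under the same symbol.

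The column headers give same-numbered samples a shared code, but the source names put the third vehicle sample with mouse 2. Deviations from group means correlated across genes at 0.315, 0.0475 and 0.434 in pairs 1, 2 and 3, and from -0.439 to 0.179 between unlike numbers. These correlations do not settle whether same-numbered samples are pairs. The main fit took no pairs, and a fit with replicate number as a block is given beside it. The motifs were sought on both strands.

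The genes, lists and tests were chosen with earlier results of these data known. Values by sample are given for the 15 brightest ligands. Also named are called genes, the 5 ligands of lowest p in each direction, the 5 of lowest p for replicate number, 3 genes per list, and Cxcl12, Cxcr4 and Ackr3. Other genes, such as Ccl24, Ccl6, Cxcl15 and the receptors set beside their ligands, were picked with their values in view. The lists also covered markers of neutrophils, pericytes and lymphocytes, of which none was called in limma for BMP6 or for replicate number. Il11ra1, Ccl21a, Ccl27a, Clcf1 and Cntf were not analysed here.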

Additional observations from a re-analysis of the deposited data

How the results depend on the processing

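None of the 65 ligands was called in limma under any of 16 alternatives, while the calls over all genes ran from 3 to 32. The count of ligands at an unadjusted p under 0.05 rose from 1 to 3 higher and from 1 to 5 lower with the replicate block. In the block fit the share of all genes under that p also rose, from 3.17% to 5.84%. That fit called 29 genes in place of 17 and gave a lowest ligand adjusted p of 0.747. Same-numbered samples are not known to be pairs: each BMP6 sample correlated best with its own number, but vehicle replicate 2 did not (0.0475, against 0.179 with BMP6 replicate 1). The call in chemokine receptors (Cxcr4) fell to 0 when the mouse given by source name was the block, without both samples numbered 3 and over all probe sets, and ran from 0 to 1 with 1 sample left out. That in NF-kB genes (Nfkbia) fell to 0 without both samples numbered 3 and over all probe sets, and ran from 0 to 1. The call between replicate numbers (Il33) fell to 0 with the mouse as the factor and ran from 0 to 1. The 99th percentile left 20 ligands above the limit. The cause of these changes was not tested.

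Some differences near 0 changed sign. With both samples numbered 3 left out, the log2 fold change was 0.033 for Ccl25, -0.021 for Il13, 0.13 for Il25 and -0.032 for Ccl5. With the mouse as a block it was 0.016 for Il17c, 0.15 for Il25 and -0.018 for Ccl5. With median-centred arrays it was 0.0087 for Il31, 0.011 for Il17c, 0.0037 for Il25 and 0.012 for Cxcl3, and with the mean over probe sets 0.0069 for Ccl25. With 1 sample left out, the ranges were -0.23 to 0.016 for Cxcl1, -0.14 to 0.052 for Ccl25, -0.10 to 0.019 for Cxcl14, -0.47 to 0.11 for Il33, -0.083 to 0.048 for Cxcl10 and -0.056 to 0.030 for Il31. They were -0.060 to 0.058 for Il17c, -0.21 to 0.013 for Ccl2, -0.021 to 0.051 for Il13, -0.14 to 0.13 for Il25, -0.022 to 0.021 for Ccl5 and -0.039 to 0.19 for Ccl22. They were -0.11 to 0.073 for Cxcl3, -0.22 to 0.0022 for Cxcl2 and -0.022 to 0.078 for Cxcl12. The spread between numbers ranged from 0.28 to 0.50 for Ccl22 and from 0.21 to 0.48 for Cxcl2, with another number on top, and was 0.30 for Ccl22 with the mouse as the factor. The files hold no detection call, so a dim signal cannot be told from background.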
